A study of Mus musculus with 8 samples.

Results

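Xenobiotic enzymes chemically modify foreign molecules, and the genes described here come mostly from the families that do most of that work in the mouse. They were chosen by symbol, as every gene with a transcript cluster of its own whose symbol starts with Cyp1, Cyp2, Cyp3, Cyp4, Ugt1, Ugt2, Gsta, Gstm, Gstp, Gstt, Gsto or Sult, and 124 of the 19928 genes tested met that rule. A transcript cluster is the array's unit of measurement, which combines the probe sets of all exons of a gene, and where Gstm3 had several clusters the brightest was kept. The 124 genes comprised 83 cytochrome P450 genes (3 of CYP1, 45 of CYP2, 6 of CYP3, 16 of CYP4 and 13 that the prefixes Cyp1 to Cyp4 took in from families such as CYP11, CYP26, CYP27 and CYP39), 8 UGT2 genes, 17 glutathione S-transferase (GST) genes and 16 sulfotransferase (SULT) genes. The UGT1 genes contributed 0 members because their transcripts share one cluster. The P450 count includes Cyp2d37-ps and Cyp4f41-ps, whose symbols mark pseudogenes. The rule reads symbols only, so that a member need not act on foreign molecules.

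Cytochrome P450 enzymes oxidize small lipophilic molecules with electrons passed on from NADPH, which is the first phase of their metabolism. In the second phase UDP-glucuronosyltransferases (UGT), GST and SULT enzymes attach glucuronic acid, glutathione or sulfate, which makes the products more water soluble. The olfactory mucosa is known for high levels of these enzymes, several of which are rare or absent elsewhere. Within it, the sustentacular (supporting) cells of the epithelium and the Bowman's glands beneath it are regarded as their main sites, whereas olfactory sensory neurons (OSNs) detect odorants.

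The study deleted the transcription factor gene Lhx2 in OSNs to ask how odorant receptor genes depend on it. Olfactory mucosa of 8 mice at postnatal day 3 was dissected and total RNA of each was hybridized to its own Affymetrix GeneChip Mouse Gene 1.0 ST array. The 4 conditional knock-out mice were 123Cre:Lhx2fl/fl (called cKO), and the 4 littermate controls were 2 Lhx2fl/+ mice (controls 1 and 2) and 2 123Cre:Lhx2fl/+ mice (controls 3 and 4), all on a mixed 129 x C57BL/6J background. All 8 mice therefore carried at least 1 floxed Lhx2 allele, and the control group pooled mice with and without Cre. Expression of 123Cre begins in immature OSNs, so that Lhx2 was not targeted in sustentacular cells or Bowman's glands, and the study describes deletion as incomplete in OSNs. The deposited values are on a log2 scale, so that a difference of 1 is a doubling.

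Lhx2, the targeted gene, had log2 signals of 13.03, 12.55, 13.01 and 13.02 in cKO mice 1 to 4, against 13.14, 13.09, 13.20 and 13.13 in controls 1 to 4. All cKO arrays lay below all control arrays, with cKO mouse 2 far below the other cKO mice, and the difference of -0.24 did not pass the threshold (limma adjusted p = 0.337). The cluster covers all exons of Lhx2, whereas only the first exons are floxed. Omp, the olfactory marker protein of mature OSNs, averaged 12.47 ± 0.32 in cKO mice and 13.44 ± 0.05 in controls (SD, n = 4 each), a difference of -0.97 (limma adjusted p = 0.00605). That call was lost, with the same direction and adjusted p-values of 0.0158 to 0.0242, without cKO mouse 3 or 4 or without any one of the 4 controls. In RNA of whole mucosa, fewer cells of a type and less RNA per cell cannot be told apart.

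Cell type markers were then read in the same RNA. Of 10 sustentacular markers that are not members, 10 were above the background level defined below, and 0 passed the threshold (0 at an unadjusted p under 0.05). Their median difference was 0.08, against 0.03 over all genes tested. Of the 10 markers, 9 had a difference above 0, as had 62.3% of all genes. Their array means were 12.02, 12.03, 12.05 and 11.97 in cKO mice 1 to 4, against 11.83, 11.98, 11.93 and 12.01 in controls 1 to 4. Cbr2, a carbonyl reductase abundant in sustentacular cells, had signals of 14.19, 14.13, 14.22 and 14.15 in cKO mice, against 14.07, 14.12, 14.10 and 14.13 in controls. Supporting cell markers were thus bright in every array, but whole mucosa does not show in which cells a member was expressed. The 8 Bowman's gland markers, also all above background, had array means from 12.00 to 12.40 in cKO mice and from 11.97 to 12.42 in controls. By contrast 4 of 10 mature OSN markers fell (Adcy3, Cnga4, Omp and Slc17a6), 10 of 10 were lower at an unadjusted p under 0.05, and the array means ran from 11.23 to 11.87 in cKO mice and from 12.40 to 12.47 in controls. Without any one of the same 6 arrays the calls of Adcy3, Cnga4 and Slc17a6 were lost too, with adjusted p-values of 0.0101 to 0.0302, and all 4 calls held without cKO mouse 1 or without cKO mouse 2. The immature OSN list had 0 calls of 7, with 3 lower at an unadjusted p under 0.05. Its median difference was -0.22, and its array means ran from 11.80 to 12.08 in cKO mice and from 12.09 to 12.19 in controls, without overlap. The list was split, with Dcx (-0.22), Ncam1 (-0.22), Gap43 (-0.29) and Gng8 (-0.31) lower and Tubb3 (-0.02), Dpysl3 (-0.01) and Crmp1 (0.02) near 0. The study reports normal numbers of Gap43-positive immature OSNs and an unaffected average over a larger set of immature OSN mRNAs. The lists for respiratory epithelium, microvillous cells, horizontal basal cells, blood, macrophages and connective tissue also had 0 calls. At an unadjusted p under 0.05, 2 of 7 respiratory markers were lower and 2 of 5 microvillous markers were higher. Of all genes tested, 9.87% were lower and 5.13% higher on that criterion.

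**Figure D1:**
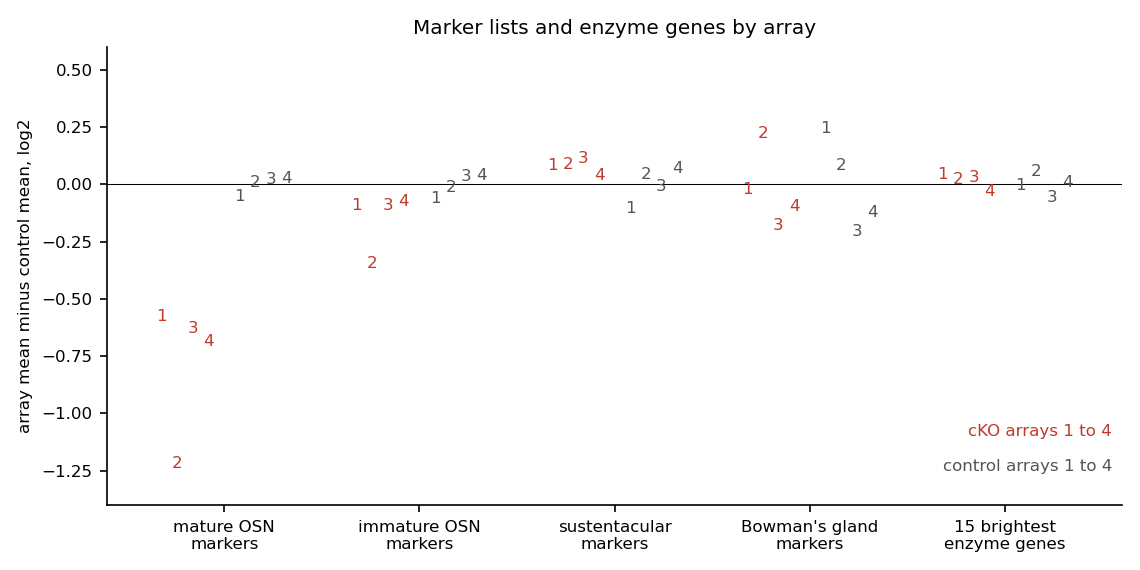
Array means of 5 gene lists (log2) relative to the mean of the 4 controls, with each array drawn as its mouse number, cKO mice at left and controls at right of each list. The mature OSN markers of all cKO mice lie below all controls, as do the immature OSN markers by a narrow margin. The sustentacular markers and the 15 brightest xenobiotic enzyme genes overlap between the groups.

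Among genes with a cluster of their own, the enzymes brightest in control mucosa were P450, GST and SULT genes, and no UGT gene was among them. Clusters shared by several genes were not ranked. In controls the cluster of Cyp2a5 and Cyp2a4 was at 14.10, above Cyp2f2 at 14.05. That of Ugt2a1 and Ugt2a2 was at 13.55, above Gstm1 at 13.48. The P450 Cyp2g1 was the brightest member and the 5th brightest of all genes tested in controls, followed by Cyp2f2, Gstm1, Sult1c1, Sult1d1, Gstm5, Gsta4, Gstm2, Sult1e1, Cyp1a2, Gstp1, Gstm4, Sult4a1, Cyp39a1 and Cyp2j6, which together make up the 15 brightest. Clusters differ in their probes, so that the order of levels between genes is approximate, and neighbours in it such as Gsta4 at 12.35 ± 0.05 and Gstm5 at 12.48 ± 0.03 in controls (SD, n = 4) are close. The mean of the 15 brightest was 12.36, 12.34, 12.35 and 12.29 in cKO mice, against 12.31, 12.37, 12.26 and 12.33 in controls, and these ranges overlapped. As a background level, the median signal of 166 vomeronasal receptor genes, which are expressed in another organ, was 5.43 in controls and their 95th percentile was 6.78. In controls 29 members lay under the median and 57 under the 95th percentile, which left 67 members at or above it and 34 at 9 or more.

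**Figure D2:**
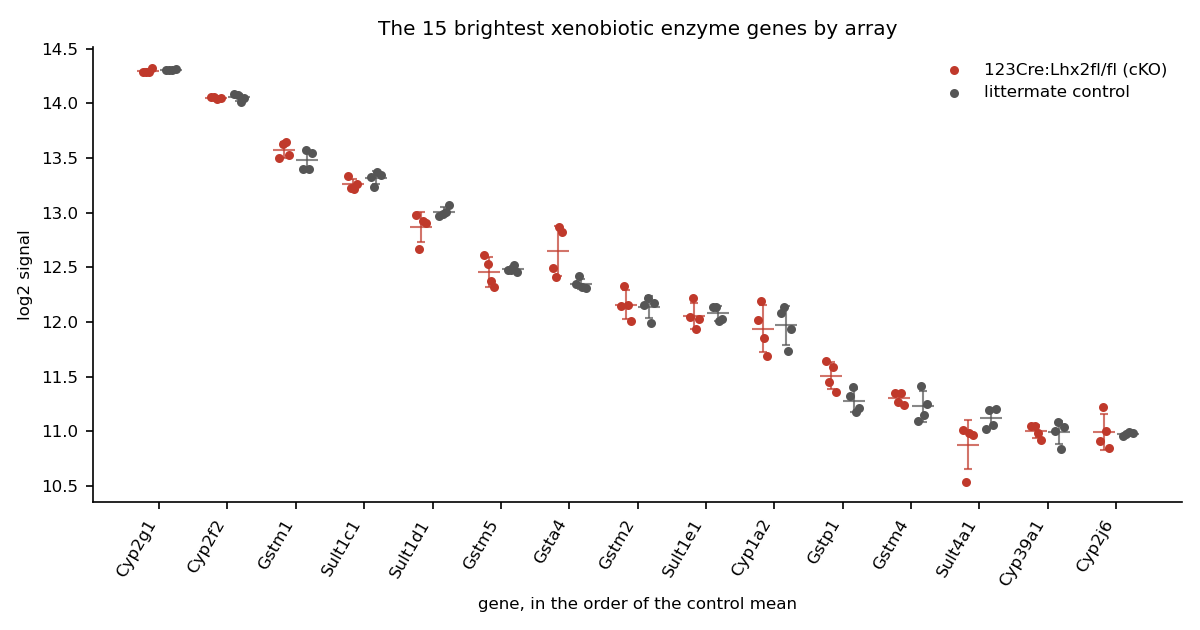
Log2 signal of the 15 members with the highest control mean, in the order of that mean, with one point per array, the cKO mice at left (red) and the littermate controls at right (grey) of each gene, and bars giving the mean and SD of 4 mice. Cyp2g1 and Cyp2f2 sit above 14 in all 8 arrays, the cKO values of Gsta4 reach higher than any control, and 1 cKO mouse is low for Sult4a1.

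Promoter sequences of 6 members are shown because the family divides into very bright and dim genes and these are the stretches next to which transcription starts. Cyp2f2, Gstm1 and Sult1c1 are the brightest members of their class with an entry in the sequence table. Cyp1a2 and Gstm5 are bright members with motifs near the start. Cyp2b19 is a dim member of the same gene cluster as Cyp2f2, with other genes between them. Each run gives the 250 bases before the annotated start on the gene's own strand, from RefSeq and build GRCm38.p6. Capitals mark matches to TATAAA (the TATA box, searched on the gene's strand only), TTGGC (core of the nuclear factor I motif), TGACNNNGC (core of the antioxidant response element) and GCGTG (core of the xenobiotic response element), the last 3 searched on both strands. A capitalized GCCAA or CACGC is therefore a match on the other strand.
Cyp2f2 (chr7:27119705-27119954, plus strand): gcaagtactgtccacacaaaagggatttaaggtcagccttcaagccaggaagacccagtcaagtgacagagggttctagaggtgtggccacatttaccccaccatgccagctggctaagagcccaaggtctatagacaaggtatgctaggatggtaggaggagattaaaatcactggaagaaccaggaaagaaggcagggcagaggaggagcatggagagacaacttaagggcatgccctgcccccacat
Cyp2b19 (chr7:26756892-26757141, plus strand): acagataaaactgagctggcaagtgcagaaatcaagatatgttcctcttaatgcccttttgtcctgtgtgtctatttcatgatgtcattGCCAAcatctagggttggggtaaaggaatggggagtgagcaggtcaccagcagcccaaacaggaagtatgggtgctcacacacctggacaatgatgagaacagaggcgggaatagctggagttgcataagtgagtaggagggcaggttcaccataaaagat
Cyp1a2 (chr9:57683656-57683905, minus strand): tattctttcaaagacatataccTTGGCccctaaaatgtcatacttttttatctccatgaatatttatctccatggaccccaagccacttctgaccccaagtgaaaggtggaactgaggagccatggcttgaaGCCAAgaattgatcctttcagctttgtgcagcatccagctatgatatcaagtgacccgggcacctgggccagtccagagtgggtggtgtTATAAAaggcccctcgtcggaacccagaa
Gstm1 (chr3:108017974-108018223, minus strand): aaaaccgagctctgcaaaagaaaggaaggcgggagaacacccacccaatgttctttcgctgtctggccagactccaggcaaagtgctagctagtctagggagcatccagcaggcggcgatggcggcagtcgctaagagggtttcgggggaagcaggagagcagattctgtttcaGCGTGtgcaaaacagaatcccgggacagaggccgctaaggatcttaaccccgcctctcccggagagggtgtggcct
Gstm5 (chr3:107895604-107895853, plus strand): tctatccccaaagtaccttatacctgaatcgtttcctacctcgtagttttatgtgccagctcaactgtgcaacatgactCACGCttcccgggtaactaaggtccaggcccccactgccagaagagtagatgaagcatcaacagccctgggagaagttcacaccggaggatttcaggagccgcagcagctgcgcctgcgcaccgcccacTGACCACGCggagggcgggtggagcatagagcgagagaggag
Sult1c1 (chr17:53990632-53990881, minus strand): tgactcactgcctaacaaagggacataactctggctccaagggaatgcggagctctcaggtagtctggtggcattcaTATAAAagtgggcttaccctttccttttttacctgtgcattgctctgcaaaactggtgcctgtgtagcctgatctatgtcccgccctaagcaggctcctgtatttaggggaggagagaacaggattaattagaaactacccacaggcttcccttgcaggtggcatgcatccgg

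Of these, Cyp1a2 had its TATA box at position -29 counted back from the annotated start, where such a box usually lies, and that of Sult1c1 stood at -173. Gstm5 held an antioxidant response element core at -42, whose last bases also spell the xenobiotic response element core at -38, and Cyp2f2 held none of the 4 motifs. Across the 100 members with a promoter in the table, TATAAA was present in 20 (of 27025 genes it was present in 8.13%). It occurred in 17.2% of the 29 matched members at 9 or more in controls and in 28.3% of the 46 matched members under the background percentile. TTGGC was present in 59.0% of members and 41.9% of all genes, GCGTG in 19.0% and 28.3%, and TGACNNNGC in 3.0% and 10.1%. In these 29 brighter and 46 dim members, TTGGC occurred in 58.6% and 58.7%, GCGTG in 27.6% and 8.7%, and TGACNNNGC in 6.9% and 0.0%. These shares describe letters within a fixed window, the members include neighbouring copies with shared sequence, and the motifs were chosen after the values had been seen.

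None of the 124 genes passed an adjusted p under 0.01 in either direction. That was 0 lower where 2.07% of all genes tested were called lower, and 0 higher where 0.0602% were called higher, and the methods' t-test, run here without their correction for the number of mature OSNs, also called 0. Among members the methods' t-test gave no adjusted p under 0.0819, and limma none under 0.0592. At an unadjusted p under 0.05, 3 members were lower (Cyp2c23, Gsto2 and Sult4a1), which is 2.42% against 9.87% of all genes. On the same criterion 14 were higher, which is 11.3% against 5.13% of all genes. Of the 14, Cyp21a1, Cyp2b9, Sult2a8, Ugt2a3 and Ugt2b34 had control means under the background percentile. The others were Cyp2r1, Cyp4b1, Cyp4f41-ps, Gsta4, Gstp1, Gstp3, Gstt1, Sult2b1 and Sult6b1. In 1 member (Sult4a1, 0.806% against 8.43% of all genes) all cKO arrays lay below all controls, and in 5 (Cyp2r1, Cyp2t4, Cyp4f41-ps, Gstp3 and Ugt2a3, 4.03% against 3.18%) all lay above. The median difference of the members was 0.04 and that of all genes tested was 0.03, with 62.9% of members and 62.3% of all genes above 0. Differences ran from -0.35 for Cyp2c23 to 0.60 for Cyp2j12.

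**Figure D3:**
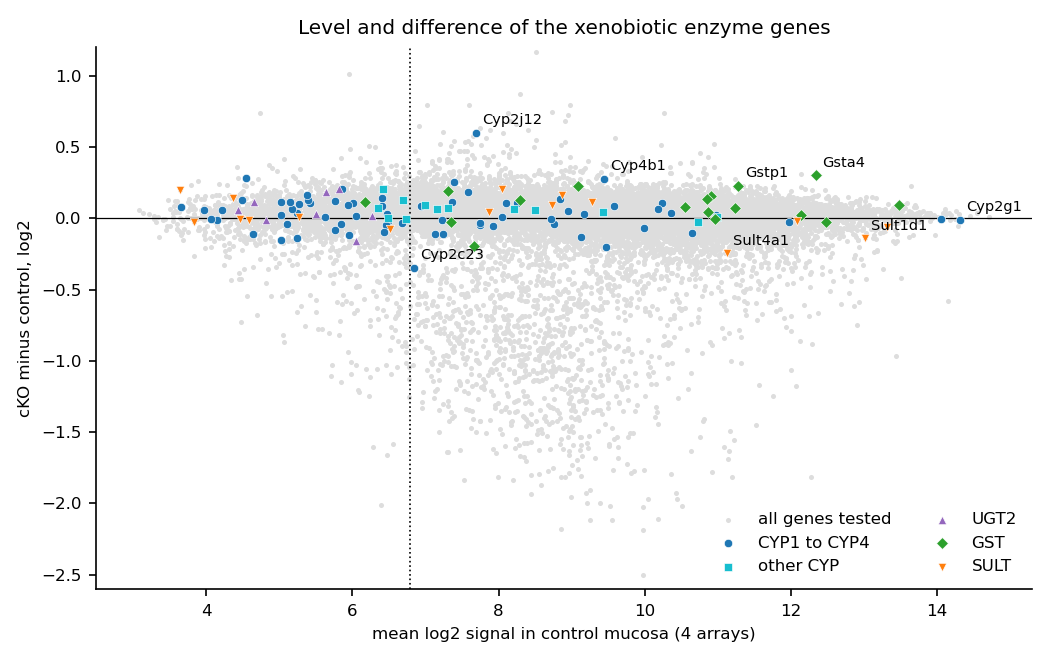
Mean log2 signal in controls (horizontal axis) against the cKO minus control difference on the log2 scale (vertical axis) for all 19928 genes tested (grey) and the 124 members, coloured by class. The dotted line is the background level of 6.78, and the members lie in the band around 0 between -0.35 and 0.60 whereas many other genes reach below -1.

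Cyp2g1, a P450 found almost only in olfactory mucosa, had log2 signals of 14.29, 14.29, 14.28 and 14.32 in cKO mice, against 14.30, 14.30, 14.30 and 14.31 in controls. Its cKO level was 99.2% of the control level (95% interval 93.7 to 105%; limma adjusted p = 0.929). Cyp2f2, which in mice activates naphthalene to toxic products in airway and nasal epithelium, was at 14.05, 14.06, 14.04 and 14.05 in cKO mice and 14.08, 14.07, 14.01 and 14.04 in controls. This was 99.7% of the control level (95% interval 93.9 to 106%; adjusted p = 0.978). Both were close to the top of the scale, where the highest signal of any gene tested was 14.8, and genes with a mean of 13 or more over the 8 arrays had a median residual SD of 0.051, against 0.129 for genes under the background level. Whether the brightest signals were compressed was not tested.

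Cyp1a2, which oxidizes aromatic amines and is induced through the aryl hydrocarbon receptor, varied more between mice than between groups. Its signals were 12.02, 12.19, 11.85 and 11.69 in cKO mice, against 12.08, 12.13, 11.73 and 11.93 in controls, a difference of -0.03 (95% interval -0.31 to 0.25). Cyp1a1, its inducible relative, was at 10.05, 10.26, 9.54 and 9.82 in cKO mice and 10.34, 10.04, 9.80 and 9.76 in controls, again with overlapping groups. Cyp2j6, an arachidonic acid epoxygenase, differed by 0.02 (95% interval -0.15 to 0.20). Among the P450s of other families, Cyp39a1, an oxysterol hydroxylase, differed by 0.01 (95% interval -0.13 to 0.15) and Cyp20a1, whose substrate is not established, by -0.03 (95% interval -0.14 to 0.08). Of the 45 CYP2 genes, 28 were above 0 with a median of 0.03, of the 16 CYP4 genes 10 were above 0 with a median of 0.06, and of the 13 other P450 genes 10 were above 0 with a median of 0.06. In the other direction, 1 of the 3 CYP1 genes was above 0 with a median of -0.03, and 2 of the 6 CYP3 genes with a median of -0.06. Over all genes tested the share above 0 was 62.3%.

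Among P450 genes above the background level in controls, the largest differences were in genes of middle or low level. Cyp2j12 was at 8.62, 7.54, 8.69 and 8.30 in cKO mice, against 7.68, 7.96, 7.13 and 7.99 in controls, a difference of 0.60 with a 95% interval of -0.03 to 1.22 (limma adjusted p = 0.362). Cyp2j12 spread widely, with cKO mouse 2 below 3 of the controls, and without that mouse the difference was 0.85. Cyp4b1, which hydroxylates fatty acids and activates furans and aromatic amines, was at 9.95, 9.55, 9.71 and 9.67 in cKO mice, against 9.36, 9.67, 9.37 and 9.39 in controls. This difference of 0.28 (adjusted p = 0.205) rested on 3 low controls, with control mouse 2 within the cKO range. Cyp2r1, a vitamin D 25-hydroxylase, was at 7.54, 7.63, 7.76 and 7.63 in cKO mice and 7.43, 7.48, 7.14 and 7.50 in controls, without overlap (difference 0.25, adjusted p = 0.181). In the other direction Cyp2c23 was at 6.66, 6.29, 6.38 and 6.66 in cKO mice and 6.86, 7.10, 6.94 and 6.49 in controls, all near the background level. Control mouse 4 lay within the cKO range (difference -0.35, limma adjusted p = 0.262). Cyp4a12b was at 9.64, 9.35, 8.85 and 9.23 in cKO mice and 9.50, 9.61, 9.53 and 9.23 in controls. Its groups overlapped (difference -0.20, limma adjusted p = 0.626).

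Among the UGT2 genes, the 8 with a cluster of their own were all under the background percentile, from 4.43 to 6.27 in controls. Ugt2a3 was at 6.01, 6.14, 5.95 and 6.00 in cKO mice, against 5.83, 5.85, 5.87 and 5.72 in controls, without overlap (difference 0.21, limma adjusted p = 0.0746). With the title letter as a block its adjusted p was 0.0389. The UGT2 enzymes of olfactory mucosa, Ugt2a1 and Ugt2a2, which conjugate odorants, share exons and one cluster, so that they fell outside the rule and could not be told apart. That shared cluster had signals of 13.57, 13.63, 13.55 and 13.56 in cKO mice, against 13.54, 13.52, 13.55 and 13.60 in controls, a difference of 0.02. The cluster shared by Cyp2a5 and Cyp2a4, which oxidize coumarin and steroids, was at 14.02, 14.14, 14.02 and 14.03 in cKO mice and 14.12, 14.11, 14.13 and 14.04 in controls, a difference of -0.05. The cluster of 8 Ugt1a genes, of which Ugt1a1 conjugates bilirubin, averaged 8.46 ± 0.24 in cKO mice and 8.52 ± 0.18 in controls (SD, n = 4 each), a difference of -0.06. In all, 16 clusters named 35 genes of these families together, 9 of which were also members through another cluster, and none of these shared clusters entered the tests.

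Of the 17 GST genes 13 were above 0, with a median difference of 0.10. Gsta4, which conjugates the lipid peroxidation product 4-hydroxynonenal, had the largest difference among the 15 brightest, with signals of 12.49, 12.41, 12.87 and 12.82 in cKO mice, against 12.35, 12.42, 12.32 and 12.31 in controls. Mice 1, 3 and 4 of the cKO group lay above all controls, and mouse 2 lay among them. The cKO level was 123% of the control level (95% interval 105 to 145%; limma adjusted p = 0.186). Gstp1, of the pi class, was at 11.64, 11.45, 11.58 and 11.36 in cKO mice, against 11.32, 11.41, 11.18 and 11.21 in controls, 117% of the control level (95% interval 104 to 132%; adjusted p = 0.164). Cluster sequences of Gstp1 and Gstp2 are closely related, and the 2 clusters naming both differed by 0.14 and 0.13. Gstp3 was at 7.56, 7.48, 7.42 and 7.54 in cKO mice and 7.25, 7.32, 7.32 and 7.36 in controls, without overlap, and had the lowest adjusted p of all members (difference 0.19, adjusted p = 0.0592, and 0.0379 after quantile normalization).

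Of the mu class, Gstm1, the brightest GST, was at 13.50, 13.62, 13.64 and 13.52 in cKO mice, against 13.40, 13.57, 13.40 and 13.54 in controls, a difference of 0.10 (95% interval -0.04 to 0.23). Gstm5 was at 12.61, 12.53, 12.37 and 12.32 in cKO mice and 12.47, 12.48, 12.52 and 12.45 in controls, a difference of -0.02. Gstm2 differed by 0.02 and Gstm4 by 0.07, and in all 4 of these genes the groups overlapped. Gsto1, an omega class enzyme that reduces arsenic compounds, differed by 0.04 (95% interval -0.19 to 0.27), and its relative Gsto2 by -0.20, at 7.62, 7.33, 7.41 and 7.53 in cKO mice and 7.65, 7.62, 7.67 and 7.73 in controls (adjusted p = 0.177).

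Among the sulfotransferases, 8 of 16 genes were above 0 and the median difference was 0.00. Sult1c1 had signals of 13.33, 13.22, 13.22 and 13.26 in cKO mice, against 13.33, 13.23, 13.37 and 13.34 in controls, a difference of -0.06 (95% interval -0.17 to 0.05). Sult1d1, which sulfates catecholamines and related phenols in mice, was at 12.97, 12.67, 12.92 and 12.91 in cKO mice and 12.97, 12.98, 13.01 and 13.06 in controls. The difference of -0.14 (limma adjusted p = 0.404) was -0.07 without cKO mouse 2. Sult1e1, the estrogen sulfotransferase, differed by -0.02 (95% interval -0.17 to 0.13).

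Sult4a1, a sulfotransferase known mainly from neurons, was the single member with all cKO arrays below all controls. Its signals were 11.01, 10.54, 10.98 and 10.97 in cKO mice, against 11.02, 11.19, 11.06 and 11.21 in controls, a difference of -0.25 (limma adjusted p = 0.322). The lowest array was again cKO mouse 2, in which Omp and Lhx2 were also lowest, and without it the difference was -0.13. The part of OSN number in this difference was not tested. Sult6b1 was the single member whose call changed when an array was left out. It was at 8.29, 8.04, 8.32 and 8.33 in cKO mice and 8.06, 8.01, 8.07 and 8.03 in controls, a difference of 0.20 (adjusted p = 0.165), and without cKO mouse 2 it was 0.27 with an adjusted p of 0.00823. Sult2b1, which sulfates cholesterol, differed by 0.17 (adjusted p = 0.275).

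**Figure D4:**
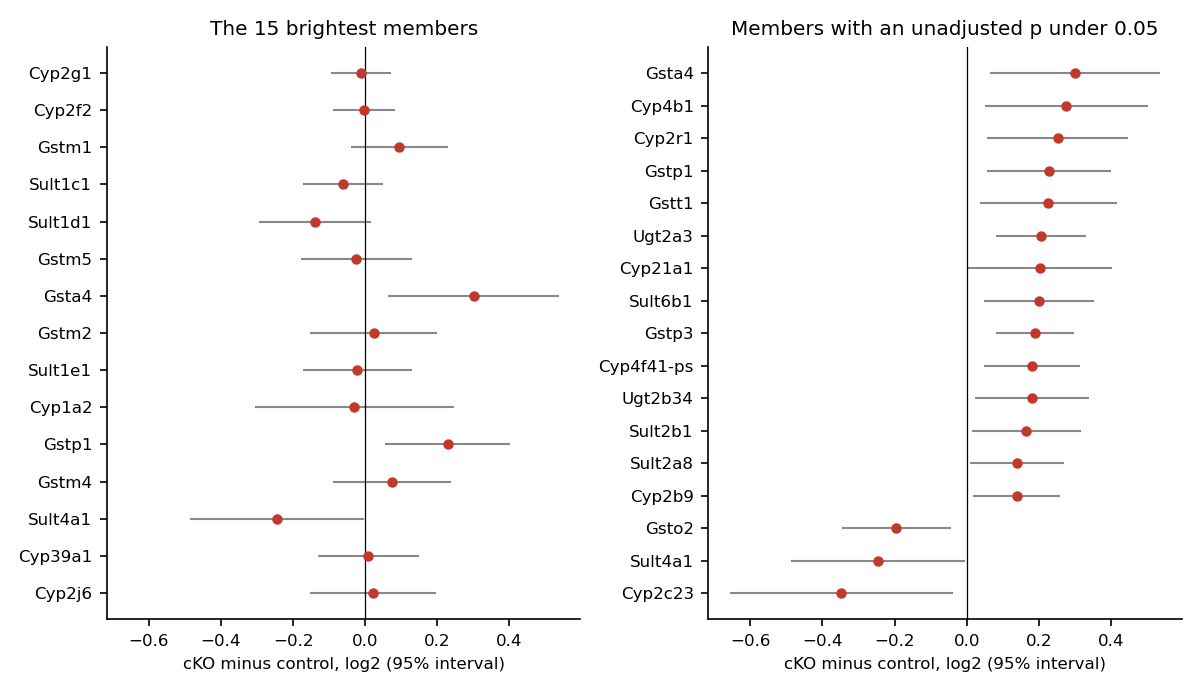
Differences (cKO minus control, log2) with 95% intervals from limma for the 15 brightest members (left) and for the 17 members with an unadjusted p under 0.05 (right). Cyp2g1 and Cyp2f2 have the narrowest intervals, and 14 of the 17 members at right lie above 0, none of which passed the adjusted threshold.

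Many of these genes lie side by side in the genome, and 81 members stood in 11 runs of at least 4 family genes by gene order in RefSeq. Bright and dim genes alternated within some runs. In the run on chromosome 7 from Cyp2s1 to Cyp2t4, Cyp2g1 at 14.30 in cKO mice and 14.31 in controls was neighbour to Cyp2b19 at 6.47 in cKO mice and 6.49 in controls. On the other side of the Cyp2a5 cluster, Cyp2a22 was at 4.02 in cKO mice and 3.96 in controls. The control levels in that run spanned 10.3 log2 units, and 6 of its 11 members were under the background percentile. In the run on chromosome 5, the Ugt2b genes and Ugt2a3 were dim, whereas the shared Ugt2a1 and Ugt2a2 cluster, Sult1b1, Sult1d1 and Sult1e1 lay together at its other end with control means from 9.27 to 13.55.

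The other runs spanned at most 6.13 log2 units in controls. All 7 mu class GST genes on chromosome 3 were above background, from 7.35 to 13.48 in controls. All 5 Cyp3a members of the run on chromosome 5 and all 3 Sult2a members of the run on chromosome 7 were under it, as were 10 of 12 Cyp2c members on chromosome 19. In the mu class run Gstm3 stands at its brighter cluster, with a mean of 10.92 over all arrays against 7.50 in its other cluster. Where each of these clusters lies in the genome was not checked. Median differences of the runs ran from -0.01 (Cyp3a) to 0.12 (the theta class GST genes Gstt1 to Gstt4 on chromosome 10, 4 of 4 above 0), and none held a member past the threshold. Probes of such neighbours can pick up related transcripts, and low values of a dim copy are uncertain for that reason.

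**Figure D5:**
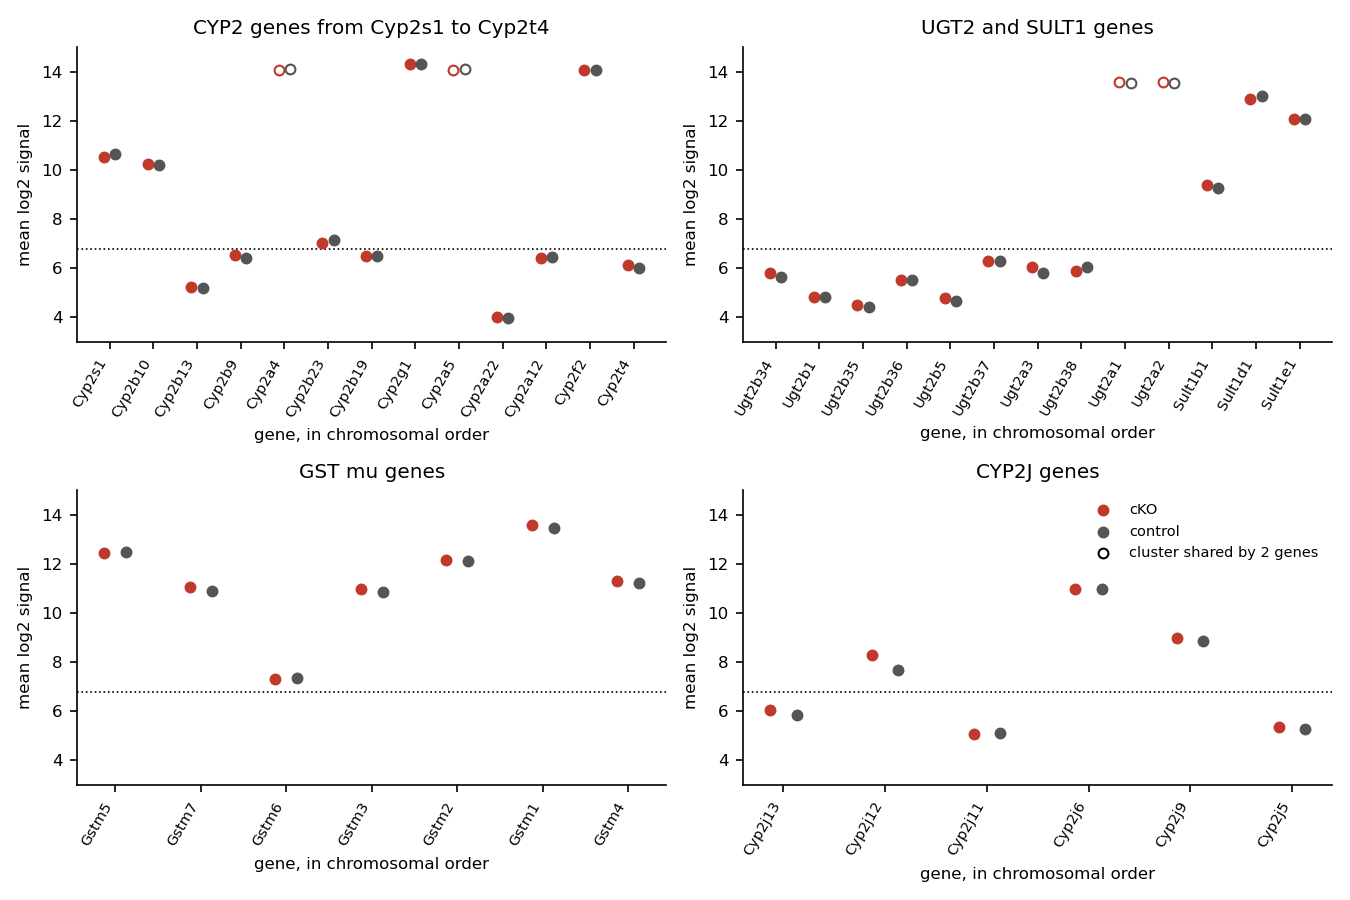
Mean log2 signal of cKO mice (red, left) and controls (grey, right) for the genes of 4 chromosomal runs in genomic order, with open circles for clusters shared by 2 genes and the dotted line at the background level of 6.78. In the CYP2 run and the UGT2 and SULT1 run, genes near 14 or 13 stand beside genes under 7, in both groups alike.

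In some members the values differed more between mice of the same group than between the groups. Each sample's title opens with A or B, and what that letter stands for is not given. The letter B is carried by cKO mouse 2 and controls 1 and 2, and A by the other 5 mice. By sex-linked mRNAs, cKO mouse 2 and controls 1 and 4 were female and the other mice male. Among cKO mice the only letter B mouse was thus also the only female, and letter and sex cannot be told apart there. The comparison of letters was added after the data were seen, and among controls the letter cannot be told apart from genotype. In a limma fit with group and letter as terms, 0 of all genes passed an adjusted p under 0.01 for the letter. At an unadjusted p under 0.05 there were 11 members, which is 8.87% against 8.72% of all genes, so that the members were near the background share. Gstt2 had the smallest p of them (0.27 higher in letter B, SE 0.06). Sult1e1, Gstm2, Gstm6, Gstm7 and Sult2a6, the last under the background percentile, were also among them. Of the 11 differences, 10 were higher in letter B and that of Sult1d1 was lower (-0.15, SE 0.06). The largest was Cyp3a13 (0.57 higher in letter B, SE 0.13), with 9.54 in cKO mouse 2 and 9.63 and 9.10 in controls 1 and 2, against 8.97, 8.65 and 8.85 in cKO mice 1, 3 and 4 and 8.89 and 8.91 in controls 3 and 4. All letter B mice exceeded all letter A mice.

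Cyp2e1 (0.54 higher in letter B, SE 0.15) and Cyp1a2 (0.30, SE 0.09) were likewise split by letter without overlap, and in Cyp1a1 (0.43, SE 0.12) the letters overlapped in 1 pair of mice. Of 4 clusters that name Gsta1, Gsta2 and 2 predicted genes, the brightest ran alike, at 9.34 in cKO mouse 2 and 9.51 and 9.36 in controls 1 and 2, against 9.15, 8.74 and 8.56 in cKO mice 1, 3 and 4 and 8.85 and 8.88 in controls 3 and 4. The Bowman's gland list was also highest in the letter B mice, at 12.40 in cKO mouse 2 and 12.42 and 12.26 in controls 1 and 2, against 12.00 to 12.16 in the other cKO mice and 11.97 and 12.06 in the other controls. Its part in these enzyme levels was not tested. With the letter in the fit the median difference of the members between cKO mice and controls was 0.05, and that of Cyp3a13 was 0.01 rather than -0.13.

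Genes that serve the same metabolism were read from 6 lists. Of 29 other phase I enzymes, 12 genes of P450 electron donors and heme supply, 13 other conjugating enzymes, 9 genes of cofactor synthesis, 14 regulators and 8 efflux transporters, 0 passed the threshold in either direction. At an unadjusted p under 0.05, 4 were higher and 6 lower over the 6 lists. Of all genes tested, 5.13% were higher and 9.87% lower on that criterion. The differences of the 12 electron donor and heme genes ran from -0.09 for Fech to 0.10 for Ppox, and Alas1, the first enzyme of heme synthesis, differed by 0.01. Gsr, glutathione reductase, differed by 0.09 and Papss2, which makes the sulfate donor, by -0.01.

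Nqo1 had the largest difference in these lists. It encodes a quinone reductase that in the mouse olfactory epithelium marks OSNs of the dorsal zone, and was at 11.39, 10.19, 10.91 and 11.07 in cKO mice, against 12.06, 11.99, 12.30 and 11.92 in controls. The groups did not overlap, and the difference of -1.18 had a limma adjusted p of 0.0175, which was 0.00902 without cKO mouse 1, 0.00322 without cKO mouse 2 and 0.0388 to 0.0552 without any one of the other 6 mice. Nfe2l2, the factor that activates antioxidant response elements, was at 11.97, 12.04, 12.03 and 12.07 in cKO mice and 12.17, 12.28, 12.12 and 12.23 in controls, without overlap (difference -0.17, adjusted p = 0.0905). Gclm and Gclc, the subunits of the enzyme that starts glutathione synthesis, differed by -0.05 and 0.02.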

How the data were processed

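Total RNA of olfactory mucosa was measured on 1 array per mouse. The deposited log2 values cover 28312 transcript clusters and were made by the authors with Affymetrix Expression Console, per the submitters' processing notes. Its version, the background correction, the summarization and the probe build were not given in the sources used here. Platform annotation gave 1 gene symbol to 21759 clusters, several to 1605 and none to 4948; clusters with several genes were not tested, and 994 genes with several clusters kept the brightest. The array annotation can be old. RefSeq tables of GRCm38.p6 supplied gene order and promoters.

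Differences were fitted with limma 3.58.1 (R 4.3.3, lmFit and eBayes, two-sided) over 19928 genes, 4 arrays against 4, with Benjamini-Hochberg adjustment and a threshold of adjusted p under 0.01. P-values weigh each difference against the spread between mice, which limma moderates over all genes. With 1 array per mouse that spread includes technical variation, and the number of arrays limits the precision. The fit was checked on simulated data with 50 known changes of each size. At the threshold it recovered 48 changes of -1.0 and 45 of 1.0 log2, but only 28 of -0.5 and 30 of 0.5. Changes of 0.5 were thus often missed in the simulation. It drew the changed genes from all genes tested and gave both groups the same spread. In the data the spread could differ, as for Omp with an SD of 0.32 in cKO mice and 0.05 in controls. Recovery among the members themselves was not measured.

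Members and lists were chosen with earlier results of these data known. Genes were named by rule: the 15 brightest in controls, any past the threshold, the 2 with the smallest p and 2 brightest per family, the 3 largest differences each way above background, and 15 enzymes known from olfactory mucosa. Gsto2, Gstt1, Cyp2e1, Cyp2t4 and the genes of chromosomal runs were named after their values were seen. Alternatives were the methods' t-test, other variance and array weights, quantile normalization, centring on other genes, subtraction of the sustentacular mean, a filter on dim genes, all clusters, letter or sex (from sex-linked mRNAs) as a block, each control genotype alone, each array left out, and CYP families 1 to 4 alone.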

Additional observations from a re-analysis of the deposited data

Results flagged for a closer look

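Among groups of 4 mice, 90 were searched for a mouse far from the other 3 in the named genes; chance alone flags about 1 group in 20. Of the members, Cyp2g1 in control 4 (14.31 against 14.30 in the other controls, a gap without practical size), Cyp3a16 in cKO mouse 1 (4.85 against 4.50 to 4.56 in the other cKO mice, below the background level) and Cyp4b1 in control 2 (9.67 against 9.36 to 9.39) stood apart. So did Sult4a1 in cKO mouse 2 (10.54 against 10.97 to 11.01), Sult6b1 in cKO mouse 2 (8.045 against 8.29 to 8.33) and Ugt2b34 in cKO mouse 3 (5.64 against 5.86 to 5.88). Outside the members, Lhx2 (12.55 against 13.01 to 13.03) and Omp (12.0 against 12.59 to 12.68) were low in cKO mouse 2.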

How the results depend on the processing

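No paired analysis was possible because the labels give the groups no shared replicate numbers. Over 22 alternatives the number of members called lower stayed at 0, and the number called higher was 0 except that it ranged from 0 to 1 when single mice were left out (Sult6b1 without cKO mouse 2, 0.27). The median difference of xenobiotic enzyme genes, 0.04, was -0.0381 with the sustentacular mean subtracted, which by construction shifts every member by the same -0.0806. It was 0.0709 against the 123Cre:Lhx2fl/+ controls alone, the cause of which was not tested, and lay between 0.0244 and 0.0545 under the others. Of 827 values of 40 named members, 826 stayed on the same side of the threshold, and 11 members changed sign at least once without a call under settings other than the 2 that shift all members alike, of which Cyp3a13 had a difference of 0.1 or more. The 4 arrays per group limit the precision, and 57 members lie under the background percentile, where a change in RNA moves the signal little.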
